A study of Mus musculus with 12 samples.

Results

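The difference between shBruce and shRenilla mouse embryonic fibroblasts (MEFs) that fed and starved cells had in common was measured by RNA-Seq. It is the effect of line, with medium as a covariate, over 6 shBruce and 6 shRenilla libraries, which are all 12 libraries of the series. Of the 24062 gene symbols in the count table, 12154 passed a filter on low counts and were tested. The shRenilla MEFs express a control shRNA against Renilla luciferase, a gene that mouse cells lack, and the shBruce MEFs express shBruce#1, an shRNA against Birc6. Cells of both lines were kept in full medium (FM) or went without serum and amino acids for 2 h (Starv), with 3 libraries in each of the 4 groups. Each shRNA is represented by a single line, so the knockdown and any other difference between the lines cannot be told apart. The labels do not say whether replicates were separate cultures, so p-values measure the spread between these libraries, which may be technical. In bulk RNA, fewer cells of a type and less RNA per cell cannot be told apart.

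Birc6 encodes BRUCE, a very large IAP (inhibitor of apoptosis protein) that joins a BIR domain to a ubiquitin-conjugating domain and can act as a ubiquitin ligase. It is known for the turnover of caspases and their activators, and in MEFs it was studied for the fusion of autophagosomes with lysosomes. Lama4 encodes the laminin α4 chain, a component of basement membranes. An shRNA is cut into a guide that leads Argonaute to a matching transcript, and a guide can also lower transcripts that pair only with its seed, usually in the 3′ UTR.

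The guide of shBruce#1 and its site are printed here because Birc6 is the gene whose level the line was made to lower, and because the seed was searched for in other transcripts. Capitals mark guide bases 2 to 8, the seed, and the bases of the site that pair with them.
shBruce#1 guide (Birc6.766): tTTTAAACcatctttgagctgt
site in Birc6: acagctcaaagatgGTTTAAAa
The site occurs once in the annotated Birc6 transcript of 14649 bases and is fully complementary to the guide. It lies in coding sequence of exon 3 at chr17:74548787-74548808 on the plus strand of GRCm38, and the transcript has 73 exons.

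Total counts ranged from 7717265 in shBruce Starv 1 to 18510540 in shRenilla FM 1. Values below are normalized read counts, that is, counts scaled by each library's effective size, and fold changes are shBruce over shRenilla on the log2 scale. Adjusted p-values come from edgeR's quasi-likelihood test over all genes tested, and a gene was called at an adjusted p under 0.05. In a principal component analysis, shBruce Starv 1 stood apart on the second component (31.1% of the variance) and shBruce FM 3 on the component after it (9.36%). The second component also separated most libraries by line. On it shRenilla libraries lay at 4.8 to 32.8 and shBruce libraries at −60.4 to −9.6, except shBruce Starv 3 at 6.4. The libraries also differed in how their counts followed transcript length, with Spearman correlations across genes of a library's deviation with annotated length from −0.035 to 0.506 in shRenilla and from −0.57 to 0.092 in shBruce libraries. Gene lists and most genes are therefore also described after a smooth dependence of every library on transcript length and GC was taken out ("trend removed"). What the length dependence comes from was not tested. Fibroblast markers summed to 9820 to 11200 CPM (read counts scaled to library size) in shRenilla and 10100 to 14200 in shBruce libraries. Of the 14 that were tested, 4 were higher and 1 was lower in shBruce MEFs (35.7% called, near the 32.1% of all genes). The 7 lists of markers of other cell types each summed to at most 558 CPM in any library. Of their 29 tested entries, 5 were higher and 3 lower, where 16.2% and 15.9% of all genes were. The higher were Krt19, Ptprc, Cd14, Tubb3 and Sox9, and the lower were Kdr, Acta2 and Mcam. Ptprc had at most 18.2 normalized counts in any library. The fibroblast list had 2 higher and 0 lower genes after trend removal (14.3% called, against 9.63% of all genes). The other lists together had 2 higher and 2 lower, where 4.45% and 5.18% of all genes were. The part of other cell types in the line difference was not tested.

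Of the 12154 genes tested, 3903 were called (32.1%), 1971 higher (16.2%) and 1932 lower (15.9%) in shBruce MEFs. Most differences were small, with a median log2 fold change of 0.47 among the higher and −0.5 among the lower genes. At least 2-fold differences were seen for 73 higher (0.601%) and 124 lower genes (1.02%). Trend removal left 1171 calls (9.63%), 541 higher (4.45%) and 630 lower (5.18%). Both fits called 861 genes the same way (7.08%, 22 of them with no annotated length and so unchanged by trend removal), 348 higher (2.86%) and 513 lower (4.22%). The count rested in part on single libraries. It was 2452 without shRenilla FM 1, 2114 without shRenilla FM 3, 1536 without shRenilla Starv 1, 1363 without shRenilla Starv 2 and 2463 without shBruce Starv 2, whereas it was 3907 without shBruce FM 3 and 3949 without shBruce Starv 1. A total of 512 higher (4.21%) and 823 lower genes (6.77%) were called the same way whichever library was left out.

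Birc6 had the smallest p-value of all genes tested. In FM its normalized counts were 4682, 3273 and 5061 in the shRenilla and 1207, 1265 and 1390 in the shBruce libraries. In Starv they were 4759, 4712 and 2787 in the shRenilla and 1175, 703 and 1226 in the shBruce libraries. Every shBruce library lay below every shRenilla library in both media, and the FM means were 4339 ± 942 and 1287 ± 93.7, against 4086 ± 1125 and 1035 ± 288 under Starv (SD, n = 3 each, shRenilla first). The shared log2 fold change was −1.87 (SE 0.17, 95% confidence interval −2.24 to −1.5, adjusted p = 0.000438), a 3.65-fold lower level. With the trend removed it was −1.43 (adjusted p = 8.17e-07), and it lay between −1.95 and −1.76 whichever library was left out. An exact permutation test that reassigned line within each medium gave a two-sided p = 0.005, the smallest that its 400 reassignments can give, which every gene reaches whose lines do not overlap in either medium (1828 of all genes tested). Birc6 spans chr17:74528295-74703356 of GRCm38.

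Lama4 (chr10:38965515-39110188) had the second smallest p-value. Its counts in FM were 298, 302 and 354 in shRenilla and 106, 116 and 105 in shBruce libraries. In Starv they were 324, 294 and 237 in shRenilla and 121, 92.8 and 190 in shBruce libraries. The lines did not overlap in either medium, and shBruce Starv 3, the highest shBruce library, was nearest to the controls. The shared log2 fold change was −1.30 (SE 0.16, adjusted p = 0.00656), and −1.08 with the trend removed (adjusted p = 0.00663).

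**Figure D1:**
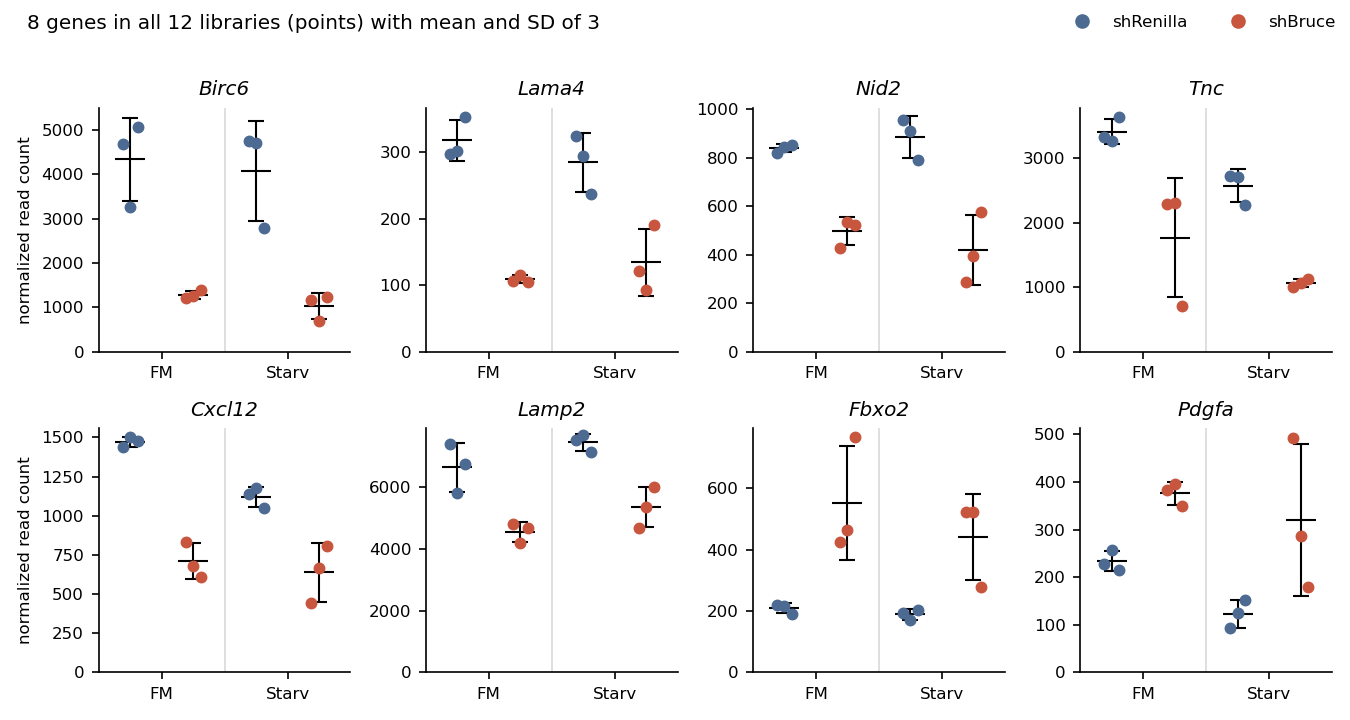
Normalized read counts (y axes, linear from 0) of 8 genes in FM and Starv (x axes). Points are the 3 libraries of each group, shRenilla in blue and shBruce in red, and bars are the mean ± SD. For each of the 8 genes the shBruce points lie wholly below or wholly above the shRenilla points within each medium, and the log2 fold changes run from −1.87 for Birc6 to 1.31 for Fbxo2.

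Genes of the basement membrane, the sheet of laminins, nidogens, type IV collagen and proteoglycans on which cells sit, included 9 that fell, 1 that rose and 16 that did not pass, of 26 tested. The share called was 38.5%, against 32.1% of all genes, and the list's median log2 fold change was −0.26 (median of all genes 0.004). After trend removal, 4 were lower and 0 higher, against 5.18% and 4.45%, and the median was −0.19. Nid2 (chr14:19751265-19811787), which encodes nidogen-2, a linker between laminins and type IV collagen, had counts of 821, 844 and 854 in shRenilla FM and 430, 535 and 525 in shBruce FM. The Starv counts were 958, 910 and 790 in shRenilla and 289, 393 and 577 in shBruce libraries. It fell without overlap in both media (log2 fold change −0.91, SE 0.14, adjusted p = 0.00747, trend removed −0.85, adjusted p = 0.00777). Lama2, another laminin α chain, was lower at a log2 fold change of −0.97, a call that was lost with the trend removed (−0.60, adjusted p = 0.144). Of the other α chains, which were chosen after their values were seen, Lama3 and Lama5 did not pass in either fit, and Lama1 was below the filter. Smoc1, which encodes a calcium-binding protein of basement membranes, was the only member that rose (1.15, adjusted p = 0.0409), from counts of at most 11.4 in shRenilla libraries, and it did not pass with the trend removed (1.12, adjusted p = 0.0857).

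Of 57 genes of the interstitial matrix, 9 rose and 12 fell, with a median of 0.01, and the share called (36.8%) was near the 32.1% of all genes. With the trend removed 4 were higher and 5 lower (15.8%, against 9.63%). Tnc, which encodes the adhesion-modulating glycoprotein tenascin-C, had counts of 3324, 3276 and 3640 in shRenilla FM and 2297, 2303 and 714 in shBruce FM. Under Starv the counts were 2732, 2713 and 2281 in shRenilla and 997, 1067 and 1127 in shBruce libraries. It fell in both media without overlap (log2 fold change −1.11, SE 0.22, adjusted p = 0.00982, trend removed −0.91), and shBruce FM 3 was far below the other shBruce libraries. Fibronectin (Fn1) and Col12a1 were lower at −0.64 and −0.73, and neither passed with the trend removed (adjusted p = 0.0687 and 0.0601). In the other direction, Aspn, which encodes the small leucine-rich proteoglycan asporin, was higher at 1.31 (adjusted p = 0.019, trend removed 1.51). Its counts were 34, 44 and 169 in shBruce FM against 34.3, 22.6 and 39.4 in shRenilla FM, so the groups overlapped and shBruce FM 3 held the highest value. The same library was the highest for Col3a1, which encodes type III collagen (175, 245 and 729 in shBruce FM against 169, 144 and 150 in shRenilla FM), and Col3a1 was higher at 1.03 (adjusted p = 0.0254, trend removed 1.17). For Col3a1 the lines overlapped in Starv, and its difference was 1.31 within FM and 0.72 within Starv. Without shBruce FM 3 and shBruce Starv 1, the log2 fold change was 0.69 for Col3a1 (adjusted p = 0.0152) and 0.92 for Aspn (adjusted p = 0.0194).

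Among metalloproteases and their inhibitors, 2 of 38 members were higher and 9 lower, with a median of −0.11 (28.9% called, against 32.1% of all genes), and with the trend removed 1 was higher and 2 were lower (7.89%, against 9.63%). Adamts9, Adam12 and Adamts6, secreted or membrane-bound metalloproteases, were lower at log2 fold changes of −1.03, −1.01 and −0.91, each without overlap in either medium. None of these 3 passed with the trend removed (adjusted p = 0.0715, 0.0545 and 0.0572). Timp3, which encodes a matrix-bound inhibitor of such proteases, was higher at 0.40 (adjusted p = 0.04) and at 0.66 with the trend removed (adjusted p = 0.0275). The lines overlapped in Starv for Timp3, and without shBruce FM 3 and shBruce Starv 1 it did not pass (0.20, adjusted p = 0.0842). Mmp24 was higher at 1.66, from counts of at most 14.1 in shRenilla libraries, and did not pass with the trend removed (adjusted p = 0.0556). Its highest count was in shBruce Starv 1 (76.7 against 25.6 and 20.4 in the other shBruce Starv libraries).

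Of 42 integrins, cadherins, protocadherins and other adhesion genes, 3 rose and 11 fell, with a median of −0.15, and the share called (33.3%) was near the 32.1% of all genes. After trend removal 2 were higher and 7 lower (21.4%, against 9.63%), and the median was −0.05. Itga8, the integrin α8 chain that binds fibronectin, tenascin-C and nephronectin, had 53.9, 33.9 and 49.3 counts in shRenilla FM and 9.56, 13.6 and 23.8 in shBruce FM. In Starv it had 59.1, 50.2 and 31.4 in shRenilla and 16.1, 7.47 and 18.6 in shBruce libraries, again without overlap. Its log2 fold change was −1.63 (SE 0.27, adjusted p = 0.00764, trend removed −1.30, adjusted p = 0.016). Itga1, the α chain of a collagen and laminin receptor, fell by 1.21 on the log2 scale (adjusted p = 0.0101, trend removed −0.73, adjusted p = 0.0326). Itga10 rose (0.48, adjusted p = 0.0153, trend removed 0.57, adjusted p = 0.0224), although a shBruce Starv library lay within the shRenilla Starv range. The protocadherin Pcdh17 was lower at −0.75 and did not pass with the trend removed (adjusted p = 0.117).

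Of 53 secreted growth factors and their binding proteins, 6 rose and 9 fell (28.3%, against 32.1% of all genes), with a median of 0.05. With the trend removed 6 were higher and 10 lower (30.2%, against 9.63%). Pdgfa, a ligand of the platelet-derived growth factor (PDGF) receptors, had 228, 258 and 216 counts in shRenilla FM and 383, 396 and 349 in shBruce FM. The Starv libraries held 92.6, 125 and 152 in shRenilla and 493, 287 and 180 in shBruce libraries. It rose without overlap in both media (1.01, SE 0.21, adjusted p = 0.0109, trend removed 0.67, adjusted p = 0.0302), whereas Pdgfd, another PDGF ligand, fell (−1.09, adjusted p = 0.0143, trend removed −1.08, adjusted p = 0.0339). For Pdgfd the lines overlapped in FM. Its difference was −0.57 within FM and −1.77 within Starv, with an unadjusted interaction p of 0.0213, which did not pass adjustment. Areg, a ligand of the epidermal growth factor receptor (EGFR), and Igfbp6 were higher at 0.76 and 0.98, and neither passed with the trend removed (adjusted p = 0.0516 and 0.08). Igf2 and Igfbp2, an insulin-like growth factor and a protein that binds it, fell (−1.25 and −1.12, adjusted p = 0.018 and 0.0447, trend removed −1.23 and −1.64). Igf2 had at most 33 counts in any library. In FM the lines did not overlap for either gene, whereas in Starv they did, with Igfbp2 at 412 in shBruce Starv 1 and 57.6 in shBruce Starv 3 against 344 to 475 in shRenilla Starv.

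Of 41 growth factor receptors, 13 fell, 1 rose and 27 did not pass, with a median of −0.27, and the share called (34.1%) was near the 32.1% of all genes. Their transcripts were long (median 5423 bases), and with the trend removed 4 were lower and 0 higher (9.76%, against 9.63%), with a median of −0.07. Epha3, an ephrin receptor, had 49, 25.5 and 57.3 counts in shRenilla FM and 12.7, 18.8 and 13.9 in shBruce FM, and it fell without overlap in both media (−1.46, SE 0.25, adjusted p = 0.00885, trend removed −1.09, adjusted p = 0.0177). Kdr, a receptor for vascular endothelial growth factor, fell likewise (−1.25, adjusted p = 0.0128, trend removed −1.01, adjusted p = 0.0444) from at most 51.9 counts in any library. Egfr was lower at −0.77 (adjusted p = 0.0123), overlapped between the lines in Starv, and did not pass with the trend removed (−0.34, adjusted p = 0.0685). Nrp1, a co-receptor for semaphorins and vascular endothelial growth factor, was the member that rose (0.46, adjusted p = 0.0448), and it did not pass with the trend removed (adjusted p = 0.0669).

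Of 29 chemokines, cytokines and related enzymes tested, 1 rose and 2 fell (10.3% against 32.1% of all genes), and with the trend removed 0 were higher and 1 was lower. Cxcl12, the stromal ligand of CXCR4, had 1439, 1502 and 1477 counts in shRenilla FM and 835, 680 and 612 in shBruce FM. In Starv it had 1139, 1175 and 1048 in shRenilla and 440, 665 and 809 in shBruce libraries. It fell without overlap in both media (−0.93, SE 0.13, adjusted p = 0.00656, trend removed −0.73, adjusted p = 0.016). Ptgs2, the inducible cyclooxygenase, was lower at −0.93 and did not pass with the trend removed (adjusted p = 0.0927). The difference was −0.37 within FM and −1.55 within Starv, with an unadjusted interaction p of 0.0015, which did not pass adjustment. Mif was higher at 0.93, with 11128 counts in shBruce Starv 1 against 3290 to 5163 in the other shBruce Starv libraries, and did not pass with the trend removed (adjusted p = 0.176). Of 51 interferon-stimulated genes, 1 rose and 3 fell (7.84%, against 32.1% of all genes), with a median of −0.28 (trend removed −0.31, 2 lower). Ifit2 fell (−0.67, adjusted p = 0.0095, trend removed −0.40, adjusted p = 0.0201), and Ifih1 was at 58.5 counts in shBruce FM 3 against 405 and 444 in the other shBruce FM libraries.

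Of 41 genes of the contractile apparatus and actin cytoskeleton, 5 rose and 10 fell, 36.6% against 32.1% of all genes, and with the trend removed 2 were higher and 5 lower (17.1%, against 9.63%). The median of the list was 0 and −0.09 in these fits. Csrp2, a LIM-domain protein, rose without overlap (0.82, adjusted p = 0.00919, trend removed 0.43, adjusted p = 0.0355). Acta2, smooth muscle actin, was lower without overlap at −0.86 (adjusted p = 0.0374) and did not pass with the trend removed (−0.95, adjusted p = 0.0518). Its counts in shBruce FM 3 and shBruce Starv 3 were 448 and 353, below 1087 to 1474 in the other shBruce libraries. Mkl2, a coactivator of serum response factor, fell at −0.56 (adjusted p = 0.0125, trend removed −0.36, adjusted p = 0.0327).

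Besides Birc6, 5 members of the IAP family were tested, Xiap, Naip2, Birc2, Birc3 and Birc5, and Naip1, Naip5 and Naip6 were below the filter. Xiap, the direct caspase inhibitor, had 1708, 1098 and 1672 counts in shRenilla FM and 988, 867 and 1032 in shBruce FM. Its Starv counts were 2502, 2637 and 1767 in shRenilla and 723, 780 and 1658 in shBruce libraries. It was lower at −0.88 (adjusted p = 0.0128), and did not pass with the trend removed (−0.38, adjusted p = 0.0686). Birc3 fell (−0.55, adjusted p = 0.0239, trend removed −0.49, adjusted p = 0.0492) and Birc2 was lower at −0.39 (adjusted p = 0.0454, trend removed −0.18, adjusted p = 0.223), both being ligases of tumour necrosis factor signalling. For Birc3 the lines overlapped in FM. Naip2, a BIR protein that senses bacterial ligands and has close paralogs with which reads may be shared, was lower at −0.88 (adjusted p = 0.0203), overlapped between the lines in FM, and did not pass with the trend removed (−0.62, adjusted p = 0.13). Birc5, survivin, did not pass (0.29, adjusted p = 0.102, trend removed −0.04). Over the 40 IAP and apoptosis genes tested, Birc6 included, 9 rose and 9 fell (45.0%, against 32.1% of all genes), and with the trend removed 3 were higher and 6 lower (22.5%, against 9.63%). Birc6, the target of the shRNA, was among the lower genes in both fits. Apaf1, the scaffold of the apoptosome, fell without overlap (−0.69, adjusted p = 0.00982, trend removed −0.36, adjusted p = 0.0326). Bax, Tradd and Bok were higher at 0.57, 0.57 and 0.56, and none of them passed with the trend removed (adjusted p = 0.694, 0.253 and 0.338). Of 33 p53 targets, 4 rose and 8 fell (36.4%, near the 32.1% of all genes), and with the trend removed 1 was higher and 3 lower (12.1%, against 9.63%).

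Very long transcripts of giant ubiquitin ligases and BEACH-domain proteins were often lower. Of 21 tested, 16 fell and 0 rose, Birc6 included (76.2%, against 32.1% of all genes), with a median of −0.55, and with the trend removed 4 were lower (19%, against 9.63%) and the median was −0.18. The median transcript length of this list was 9888 bases, against 2975 over all genes tested. Nbeal1 fell (−1.43, adjusted p = 0.0106, trend removed −0.79, adjusted p = 0.0339), and Lyst was lower at −1.06 (trend removed −0.62, adjusted p = 0.0687). The lines overlapped in FM for Nbeal1 and in Starv for Lyst. Among 43 ubiquitin-conjugating and -activating enzymes and ubiquitin genes, 6 rose and 1 fell (16.3%, against 32.1% of all genes), the latter being Uba6 (−0.89, trend removed −0.40, adjusted p = 0.0566), and with the trend removed 2 were higher (4.65%).

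Of the autophagy genes, those for Atg8 proteins and receptors were called most often. Of 21 tested, 7 rose and 4 fell (52.4%, against 32.1% of all genes, median 0.15), and with the trend removed 3 were higher and 1 lower (19%, against 9.63%). Map1lc3a was higher at 0.94 (adjusted p = 0.0119, trend removed 0.39, adjusted p = 0.0527) and Gabarapl2 rose (0.64, adjusted p = 0.0236, trend removed 0.58, adjusted p = 0.0464). For Gabarapl2 the lines overlapped in FM, and its difference was 0.36 within FM and 0.94 within Starv. Atg4d, an Atg8 protease, had 318, 389 and 317 counts in shRenilla FM and 459, 431 and 409 in shBruce FM, and rose without overlap in both media (0.51, adjusted p = 0.0129, trend removed 0.62, adjusted p = 0.0234). Map1lc3b, which encodes LC3B, did not pass (0.19, adjusted p = 0.271). Gabarap, Gabarapl1 and Sqstm1, which encodes the receptor p62, were higher at 0.35, 0.27 and 0.31 (adjusted p = 0.0393, 0.026 and 0.0208), and none passed with the trend removed (adjusted p = 0.377, 0.518 and 0.487). Of 30 genes of autophagosome formation (6.67% called), 1 rose (Atg101, 0.63) and 1 fell (Atg2b, −0.43), neither with the trend removed (adjusted p = 0.128 and 0.199), where 2 other members were higher. Atg5 and Mtor did not pass in either fit (0.12 and −0.25).

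Of 30 genes of autophagosome-lysosome fusion, 4 rose and 5 fell (30.0%, against 32.1% of all genes), and with the trend removed 0 were higher and 5 lower (16.7%, against 9.63%). Lamp2, a lysosomal membrane protein needed for fusion, had 7392, 5809 and 6766 counts in shRenilla FM and 4801, 4192 and 4684 in shBruce FM. In Starv it had 7527, 7698 and 7157 in shRenilla and 4695, 5379 and 6009 in shBruce libraries. It fell without overlap in both media (−0.51, SE 0.087, adjusted p = 0.00837, trend removed −0.41, adjusted p = 0.0119), a 1.43-fold difference that held at −0.56 to −0.47 whichever library was left out. Lamp1 did not pass at −0.15 (adjusted p = 0.102) and was called lower at −0.26 with the trend removed (adjusted p = 0.0218). Of the fusion SNAREs, Vamp8 was higher (0.77, adjusted p = 0.0114) and Stx17 lower (−0.37, adjusted p = 0.0132) without overlap in either medium, neither passed with the trend removed (0.30 and −0.02, adjusted p = 0.0668 and 0.859), and Snap29 did not pass (−0.23, adjusted p = 0.163). The Rab GTPase-activating proteins Tbc1d15 and Tbc1d5 fell at −0.57 and −0.44, also with the trend removed (−0.27 for each, adjusted p = 0.0326 and 0.0218).

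**Figure D2:**
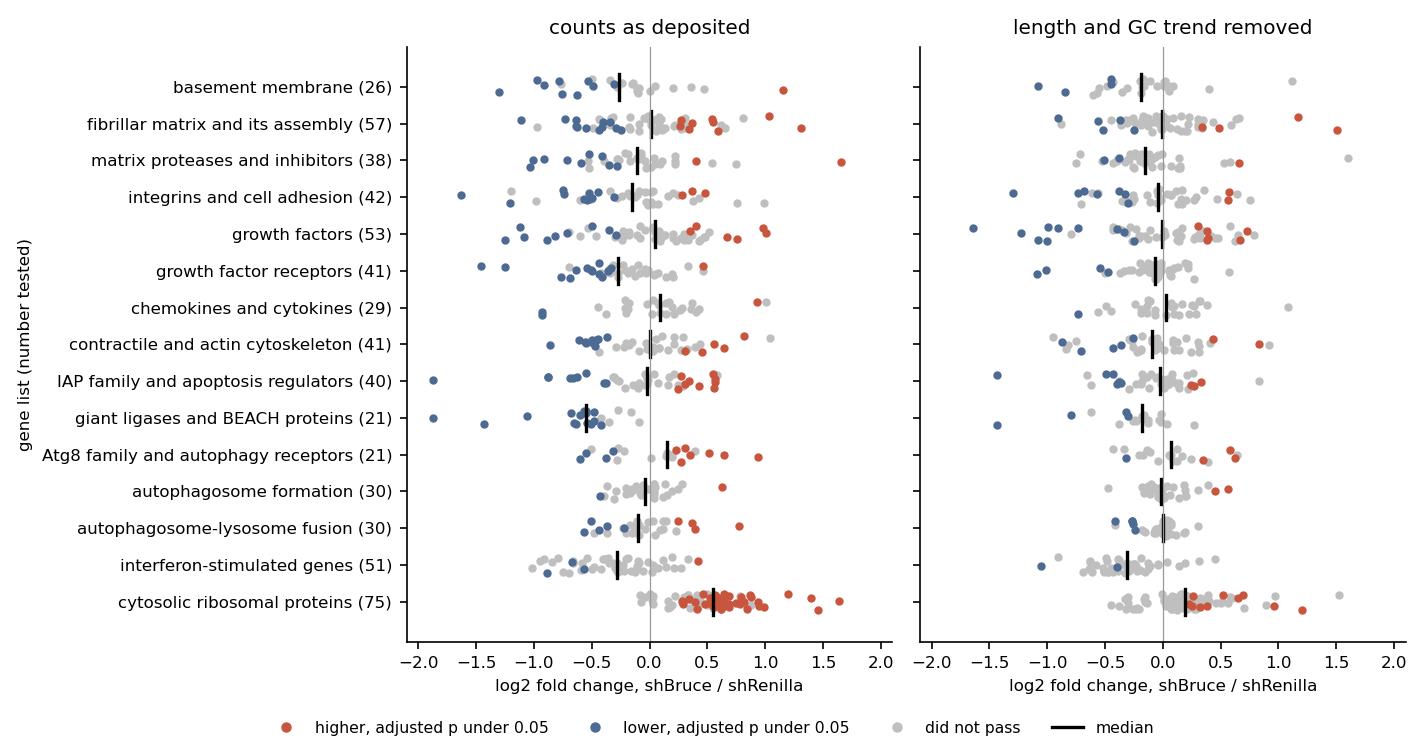
Log2 fold changes (x axes) of the tested members of 15 gene lists (y axis), from the counts as deposited on the left and with the length and GC trend removed on the right. Each point is a gene, red where higher and blue where lower at an adjusted p under 0.05 and grey where it did not pass, and black bars are medians. The medians of the giant ligases and BEACH proteins (−0.55) and of the ribosomal proteins (0.55) lie farthest from 0 on the left, and move to −0.18 and 0.19 on the right.

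Cytosolic ribosomal protein genes, whose transcripts are short (median 860 bases), were often higher. Of 75 tested, 44 rose and 0 fell (58.7%, against 32.1% of all genes), with a median of 0.55, and with the trend removed 10 were higher (13.3%, against 9.63%) and the median was 0.19. Reads of these genes can be shared with near-identical processed copies, so single members are uncertain. Rpsa had 520, 646 and 480 counts in shRenilla FM and 787, 710 and 790 in shBruce FM. In Starv it had 411, 394 and 560 in shRenilla libraries and 7511, 1180 and 801 in shBruce libraries, so that shBruce Starv 1 stood far above every other library. Its log2 fold change was 1.64 (adjusted p = 0.038), 0.77 without shBruce Starv 1 (adjusted p = 0.00876), and it did not pass with the trend removed (adjusted p = 0.0937). Of 53 genes of S phase and mitosis, 4 rose and 10 fell (26.4%, against 32.1% of all genes), and with the trend removed 1 was higher and 2 were lower (5.66%, against 9.63%). Of 25 Hox genes, 1 rose and 0 fell, and with the trend removed 0 were higher and 1 was lower. This is 4.0% in each fit, against 32.1% and 9.63% of all genes. Of 19 imprinted genes, 3 rose and 5 fell (42.1%, against 32.1% of all genes), and with the trend removed 2 were higher and 2 lower (21.1%, against 9.63%). Plagl1, a zinc finger transcription factor, fell (−0.85, adjusted p = 0.00982, trend removed −0.58, adjusted p = 0.0329).

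The genes with the largest differences were taken among those called, with a mean of at least 50 in the higher line and no overlap between the lines within FM and again within Starv, which held for 731 higher and 901 lower genes. Over all genes tested, 804 (6.62%) were higher and 1024 (8.43%) lower without overlap in both media. The 15 lower genes with the largest log2 fold change were Birc6, Uhmk1, Zfp369, Dpy19l4, Lnpep, Prex2, Ptpn4, D830031N03Rik, Megf9, Capn6, Lrch2, Cbl, Gk5, Lama4 and Klhl11, from −1.87 to −1.30, and the 14 with an annotated length also passed with the trend removed. D830031N03Rik has none, so no trend could be removed for it. Uhmk1, a serine/threonine kinase, had 219, 136 and 257 counts in shRenilla FM and 70.1, 93.2 and 88.3 in shBruce FM. Starv counts were 309, 297 and 154 in shRenilla and 86.8, 22.4 and 100 in shBruce libraries (−1.57, SE 0.3, adjusted p = 0.00953, trend removed −1.17). Cbl, the ubiquitin ligase that acts on receptor tyrosine kinases, had 407, 217 and 521 counts in shRenilla FM and 169, 188 and 175 in shBruce FM (−1.35, SE 0.34, adjusted p = 0.0154, trend removed −0.95). Capn6, a calpain-like protein, had 78.4, 52.8 and 77.1 counts in shRenilla FM and 25.5, 32.5 and 27.8 in shBruce FM (−1.38, SE 0.19, adjusted p = 0.00656, trend removed −1.23, adjusted p = 0.00693). Lnpep, an insulin-responsive aminopeptidase, and Prex2, a Rac exchange factor, both changed by −1.47. In 13 of the 15 genes shBruce Starv 2 was the lowest library, as for Cbl with 45.9 counts against 240 and 211 in the other shBruce Starv libraries.

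The 15 higher genes with the largest log2 fold change were Oaz1, Rpsa, Atoh8, Krt16, Rpl11, Fbxo2, Nrp, 2200002D01Rik, Atp5e, Ndufa2, Chst1, Tmem160, S100a13, Gchfr and Atp5j2, from 1.72 to 1.04. In 11 of them shBruce Starv 1 held the highest count. Oaz1, like the ribosomal protein genes, has near-identical copies in the genome, so its value is uncertain. All 15 still passed without this library, at log2 fold changes of 0.93 for Oaz1, 0.75 for Rpl11, 0.81 for Nrp, 0.75 for 2200002D01Rik, 0.78 for Atp5e and 0.73 for Ndufa2. Of the 14 with an annotated length 6 passed with the trend removed, namely Atoh8, Krt16, Fbxo2, Chst1, Gchfr and Atp5j2. Fbxo2 (chr4:148160621-148166424), an F-box protein that recognises N-glycans on misfolded glycoproteins, had 220, 217 and 190 counts in shRenilla FM and 425, 465 and 765 in shBruce FM. In Starv it had 195, 170 and 204 in shRenilla and 523, 521 and 278 in shBruce libraries (1.31, SE 0.18, adjusted p = 0.00656, trend removed 0.81, adjusted p = 0.0175). Atoh8, a basic helix-loop-helix transcription factor, had 31, 28.3 and 22.4 counts in shRenilla FM and 42.5, 50.2 and 88.3 in shBruce FM (1.5, SE 0.26, adjusted p = 0.00919, trend removed 1.22). Chst1, a sulfotransferase of keratan sulfate, had 62, 60.4 and 50.2 counts in shRenilla FM and 99.8, 89 and 159 in shBruce FM (1.10, SE 0.16, adjusted p = 0.00667, trend removed 0.92). The keratin gene Krt16 changed by 1.40 (adjusted p = 0.00747, trend removed 1.09).

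**Figure D3:**
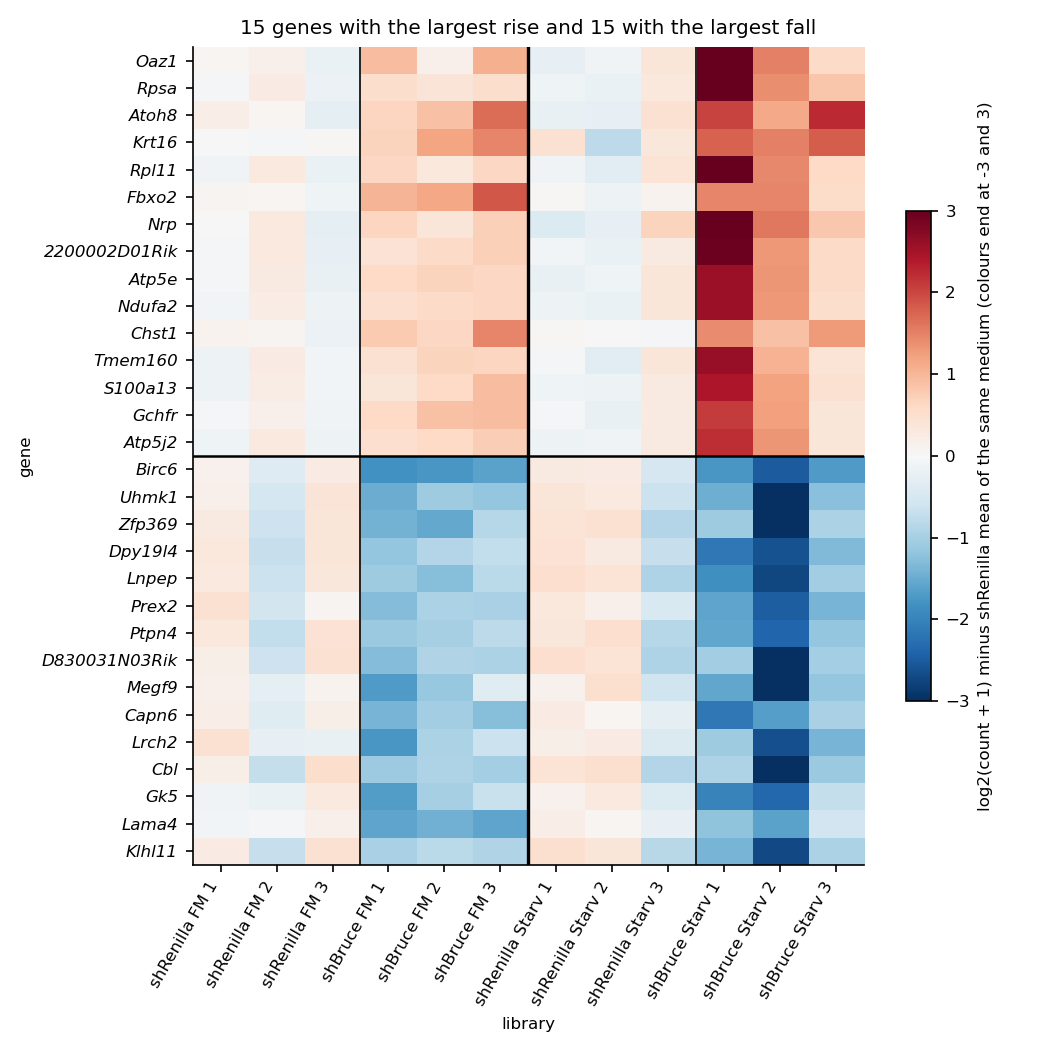
Heat map of the 15 higher (top) and 15 lower (bottom) genes with the largest differences (y axis) in the 12 libraries (x axis). Colour, which ends at −3 and 3, is log2(count + 1) minus the mean of the 3 shRenilla libraries of the same medium, red above and blue below it. Every shBruce column keeps the direction of its block, with the highest value in shBruce Starv 1 for 11 of the 15 higher genes and the lowest value in shBruce Starv 2 for 14 of the 15 lower genes, all but Capn6.

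A stricter set was drawn after the values had been seen. It holds the genes that met the rule above, were called the same way with the trend removed and were called whichever library was left out, which left 118 higher and 345 lower genes, 6 of them with no annotated length. Ranked by the trend-removed value, the lower genes were led by Birc6 and by Tcn2, a vitamin B12 transport protein. Tcn2 had 159, 147 and 132 counts in shRenilla FM and 72.2, 68 and 36.7 in shBruce FM, and in Starv 153, 136 and 155 in shRenilla and 50.5, 80 and 71.5 in shBruce libraries (−1.21, adjusted p = 0.00656, trend removed −1.43, adjusted p = 0.00263). Further down were Cers6, a ceramide synthase, Slit3, a secreted guidance ligand, and Mdm4, an inhibitor of p53, with trend-removed values of −1.38, −1.17 and −1.09. Among the higher genes were Zbtb20, a transcriptional repressor (0.63, trend removed 1.15), Pcolce2, an enhancer of procollagen processing (0.78, trend removed 1.04), the nuclear RNA Neat1 (0.55, trend removed 0.97) and Igf2bp3, an RNA-binding protein (0.68, trend removed 0.93). Neat1 had 9881, 10126 and 10192 counts in shRenilla FM and 13889, 13650 and 21361 in shBruce FM. The counts under Starv were 15296, 14765 and 16142 in shRenilla and 16881, 19132 and 24875 in shBruce libraries. Trend-removed values depend on the length of the annotated transcript, which was taken from the annotation and not measured in these cells. The transcript with the longest coding sequence was used. For some genes it was shorter than the longest annotated 3′ UTR, as for Cers6 (1279 against 5688 bases) and Mdm4 (1914 against 5436). The same held for Birc5 (947 against 2936) and Pdgfd (1795 against 1942), and narrowly for Lamp2 (2184 against 2205) and Gk5 (2815 against 2828). Trend-removed values of such genes are uncertain. Zbtb20, Neat1 and Atg4d, with annotated transcripts of 26901, 20771 and 5951 bases, rose more with the trend removed. Whether these lengths apply in these cells was not tested.

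Whether the line difference was the same in both media was tested as the interaction of line and medium. No gene passed (0 of 12154, 0.00%), and the lowest adjusted p in edgeR was 0.806. Even Rpsa, with an interaction of 2.32 on the log2 scale, was at that value. With 3 libraries per group, the absence of calls does not show that the differences were equal. Before adjustment 474 genes (3.90%) lay under 0.05. DESeq2 and limma-voom also called 0 genes, with 534 and 432 at an unadjusted p under 0.05. That unadjusted count depended on single libraries. It was 3047 with sample quality weights in limma-voom and 3028 without shBruce Starv 3, 786 without shBruce Starv 2 and 722 without shRenilla Starv 3. It fell to 306 and 245 without shRenilla FM 1 and 2, and to 205 and 228 without shRenilla Starv 1 and 2, with 0 genes called each time. A line difference was next fitted in each medium alone, on libraries that the other fit did not use. The 6 FM libraries gave 597 calls (5.11%), whereas the 6 Starv libraries gave 0 (0.00%), with 3662 genes at an unadjusted p under 0.05 (30.6%). Of 596 genes called in FM with a value in Starv, 589 had the same sign there (98.8%, against 79.9% of all 11577 genes fitted in both), and for 361 (60.6%) the 3 shBruce Starv libraries lay wholly beyond the 3 shRenilla Starv libraries in that direction, against 34.9% of all genes in either direction. Genes called lower in FM had a median log2 fold change of −0.63 in FM and −0.79 in Starv, and genes called higher had 0.5 and 0.68. The length trend was present in both media. With it removed, 31 genes were called in FM, 8 higher and 23 lower, and all 31 had the same sign in Starv, against 71.0% of all genes. These 31 included Birc6, Lama4, Nid2, Cxcl12, Lamp2 and Pcolce2.

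**Figure D4:**
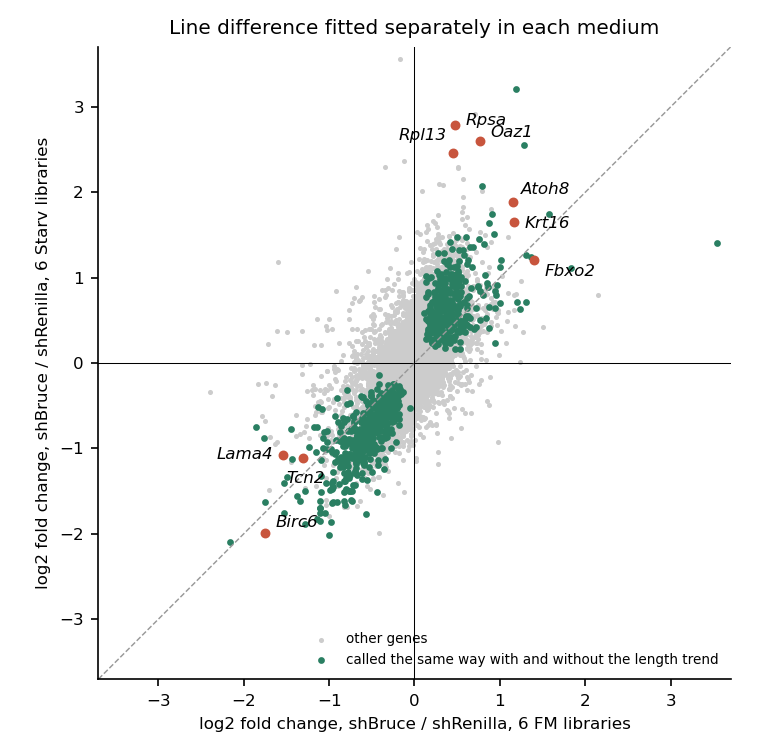
Log2 fold change of shBruce over shRenilla in the 6 FM libraries (x axis) against that in the 6 Starv libraries (y axis) for 11577 genes. Green points are genes called the same way with and without the length trend, red points are named genes, and the dashed line marks equal values. Birc6 (−1.75 in FM, −1.99 in Starv) and Lama4 (−1.54 and −1.08) lie near the line, and Rpsa (0.47 and 2.79) and Oaz1 (0.77 and 2.60) lie far above it.

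The line difference followed transcript length. With genes split into 5 bins of equal number by annotated length, from shortest to longest, the median log2 fold change was 0.33, 0.11, −0.02, −0.12 and −0.31. In the shortest bin (up to 1668 bases) 41.8% of genes were higher and 1.45% lower, and in the longest (from 4900 bases) 2.82% were higher and 40.5% lower. After trend removal, the medians lay between −0.05 and 0.02, and 2.65% higher and 3.11% lower in the shortest bin stood against 7.05% and 8.34% in the longest. Of the genes called, 200 higher and 114 lower genes changed sign when the trend was removed. By chromosome, medians ranged from −0.14 to 0.14 over the 20 chromosomes, and from −0.06 to 0.02 with the trend removed.

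**Figure D5:**
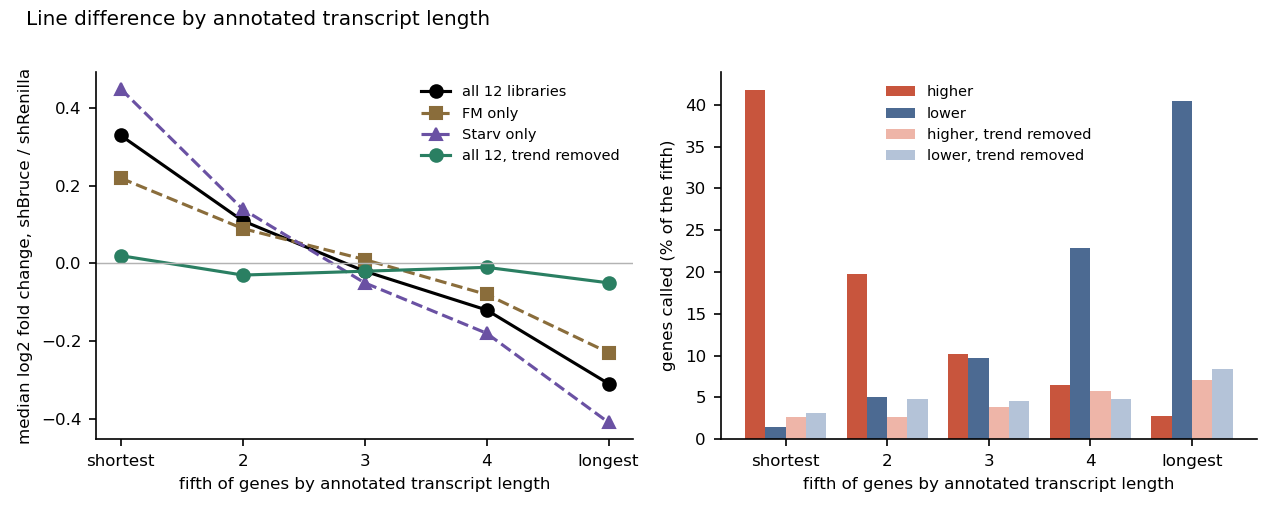
Left, median log2 fold change (y axis) by bin of annotated transcript length, each holding an equal number of genes, (x axis) in all 12 libraries, in each medium alone and with the trend removed. Right, share of genes called higher or lower in each bin. The median falls from 0.33 to −0.31, in Starv from 0.45 to −0.41, and the shares called lower rise from 1.45% to 40.5%, whereas the trend-removed medians stay between −0.05 and 0.02.

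The seed of the guide was searched for in 3′ UTRs as GTTTAAA, on the transcript strand, in the longest annotated 3′ UTR of each gene. It was present in 2174 tested genes (18.7% of those with a 3′ UTR). Their median log2 fold change was −0.214, against 0.042 without a match, but their 3′ UTRs were also longer, with a median of 2572 against 990 bases. After trend removal the medians were −0.041 and −0.012. The share called lower with the trend removed was 9.38% with and 4.29% without a match. The share called higher was also larger with a match, 6.85% against 3.86%. With genes split into 3 bins by 3′ UTR length, the trend-removed medians in the shortest bin were −0.022 with and 0.002 without a match, in the middle bin −0.087 with and −0.028 without a match, and in the longest bin −0.02 and −0.013. The shares called lower in these bins were 6.76% against 2.2%, 8.17% against 4.8% and 10.2% against 6.79%, with a match and without. The shares called higher were 4.05% against 2.2%, 1.83% against 3.06% and 9.26% against 7.45%. The second Birc6 guide of the study, which these cells do not carry, served as a comparison, and its seed match CACTCTA gave −0.165 with and 0.011 without a match, and −0.02 and −0.016 with the trend removed. Its shares called lower with the trend removed were 7.13% and 5.1%, and its shares called higher were 5.38% and 4.34%. Called lower by 3′ UTR bin were 0.0% against 2.42%, 5.44% against 5.32% and 8.63% against 7.94%, from the shortest to the longest. The shortest bin held 60 genes with this match. Of the 15 genes with the largest fall, 14 were matched to an annotated 3′ UTR and 7 held GTTTAAA (Dpy19l4, Lnpep, Prex2, Ptpn4, Lrch2, Cbl and Gk5), and Lama4 and Birc6 held none. Over all genes described with values and matched to a 3′ UTR, 23 of 61 lower and 3 of 40 higher genes held it, the latter being Zbtb20, Pcolce2 and Mmp24. Lamp2 and Nid2 were among the 23. These genes were not matched for 3′ UTR length. Of the 15 with the largest rise, 14 were matched and 0 held it. A match is a description of the sequence only, and binding of the guide was not measured.

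Over the 12 libraries, the genes whose log2 counts were most like those of Birc6 were Tbc1d5 (Pearson r = 0.977), Usp53 (0.974), Itgav (0.962), Lman1 (0.961) and Itga8 (0.960). Those most like Lama4 were Zcchc6 (0.946), Birc6 (0.941), App (0.941), Epha3 (0.936) and Tmod2 (0.932). The points share libraries, depth and the length trend, so these values are a description. Itgav, the integrin αv chain, had 7166, 5058 and 7225 counts in shRenilla FM and 4414, 3622 and 4115 in shBruce FM, which shows the same low second shRenilla FM library as Birc6. After trend removal, Usp53, Itgav, Itga8, Tbc1d5, Epha3 and Tmod2 still passed, whereas Lman1, Zcchc6 and App did not (adjusted p = 0.425, 0.527 and 0.747).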

How the data were processed

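RNA-Seq counts of the 12 libraries were deposited by the authors as 1 table of reads per gene symbol, not normalized. Per the labels, the submitters' processing notes name STAR 2.4.0d, HTSeq 0.5.4p3, R 3.2.0, edgeR, limma and the mm10 build, and the strand setting is not given in the sources used here. The members and gene lists were chosen with earlier results of these data known. Genes passing edgeR's filterByExpr were tested with the quasi-likelihood test of edgeR 4.0.16 (R 4.3.3), with TMM scaling, line and medium as terms and Benjamini-Hochberg adjustment at 0.05 over 12154 genes. Of 24062 symbols, 22724 were matched to the GRCm38 annotation directly and 913 through older symbols. Among the symbols, 27 had been turned into dates. The trend was removed with a spline of 4 degrees of freedom on log2 transcript length and on GC content for each library, entered as an offset, for the 12052 genes with both values. The 102 other genes entered that fit unadjusted. Likeness used log2(count + 1). Named genes were Birc6, Lama4, the 15 largest in each direction among genes called, with a mean of at least 50 in the higher line and no overlap in either medium, up to 3 per direction of each list, genes the study follows, and the IAP family. Others are said to have been chosen after their values were seen. Alternatives were DESeq2 1.42.0, limma-voom (limma 3.58.1), other scalings and filters, a replicate block, single media and 12 fits that each left out 1 library. Leaving out shBruce FM 3 and shBruce Starv 1 together was added after seeing the data. The fits were tested on simulated data. The total counts of the libraries limit precision for genes of few counts.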

Additional observations from a re-analysis of the deposited data

How the results depend on the processing

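The count of 3903 genes was 597 in the 6 FM libraries and 0 in the 6 Starv libraries (edgeR, 3662 at an unadjusted p under 0.05), 1171 with the length and GC trend removed, 1125 with the trend removed in limma-voom, 2151 with the trend removed and the 2 libraries that stand apart left out, and 197 at 2-fold or more. The single-medium fits used fewer samples by construction, and for the others the cause was not tested. It ranged from 1363 to 5196 when 1 library was left out, lowest without shRenilla Starv 2. Other scalings and filters, DESeq2 and limma-voom gave counts within 1.5 times the reported one. The interaction gave 0 genes under every alternative run. Birc6 was lower under every alternative, at −1.99 in the Starv libraries alone (adjusted p = 0.117). Trend removal turned Birc5 to −0.04, to −0.05 in limma-voom and to −0.05 with the 2 libraries left out. With the trend removed and those 2 libraries left out, App was at 0.03, Gabarap at −0.00074 and Map1lc3b at −0.12, and Map1lc3b was at −0.08 in the FM libraries alone.

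Replicate numbers were tried as a block. Deviations of libraries with the same number correlated at −0.456 to 0.347, so the numbers were not taken to pair the libraries. The replicate block gave 3158 genes, 1476 higher and 1682 lower. With the trend removed it gave 458, and Birc5 was at −0.04.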
